A study of Mus musculus with 13 samples.

Results

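The genes described here are 10 imprinted genes that promote or restrain growth: H19, Igf2, Dlk1, Meg3, Peg3, Mest, Nnat, Cdkn1c, Grb10 and Peg10. They were taken as a named set and found by matching the Ensembl identifiers of the expression tables to mouse gene symbols, which gave all 10 among the 34857 genes of the tables. The cells were Neuro2a, a mouse neuroblastoma line, so every library comes from 1 cell line and no animal was sampled. RNA was measured by poly(A) RNA sequencing in 3 control and 4 experimental libraries at passage 1, and in 3 control and 3 experimental libraries at passage 6. Experimental cells were frozen in 10% DMSO in a flask of liquid nitrogen that boiled away over 10 h, were held for another 24 h while they warmed to 4 °C, and were then refrozen at -80 °C for 72 h before they were thawed at 37 °C and plated. Control cells were frozen in the same 10% DMSO and thawed in the same way, but stayed in ordinary cryostorage throughout. Passage 1 stands for early recovery, when surviving cells were dividing fast again, and passage 6 for a later time when they looked normal. The labels do not say whether replicates were separate vials or flasks, so p-values measure only the spread between these libraries, which may be technical.

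An imprinted gene is expressed mainly from the copy inherited from 1 parent, because DNA methylation laid down in the germ line marks the maternal or the paternal copy. Igf2, Dlk1, Peg3, Mest, Nnat and Peg10 are expressed from the paternal copy, and H19, Meg3 and Cdkn1c from the maternal copy, while Grb10 is maternal in most tissues and paternal in neurons. Many of these genes are high in the embryo and placenta, fall after birth, and are expressed again in embryonal and neural tumours. FPKM do not separate the parental copies, so the values below are the sum of both.

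Levels are given in FPKM, fragments per kilobase of transcript, relative to all fragments mapped in that library. A gene was tested where it reached 1 FPKM in at least 3 libraries of a passage, and it is said to have risen or fallen where the adjusted p (limma on log2(FPKM + 1), Benjamini-Hochberg over all genes tested) was under 0.05. Changes are experimental minus control on that log2 scale, which understates the change of genes near 1 FPKM. Read numbers are unknown, and the smallest steps between low values put the depth of the 13 libraries between 0.779 and 1.10 times that of passage 1 control 2. Of 20 markers of neuroblastoma cells, 16 were at 1 FPKM or more in every library. Several libraries also carried transcripts of other tissues, measured with marker lists. The sum of 14 cartilage markers was 12.9 FPKM in passage 1 control 1 and 16.7 FPKM in passage 1 experimental 4, and 39.5 to 57.3 FPKM in the remaining 5 libraries at this time. The sum of 14 liver markers was 221 and 179 FPKM in passage 6 experimental 2 and 3 and at most 1.26 FPKM in the other 11 libraries, and the sum of 14 brain markers was 86.9 and 70.3 FPKM in the same pair against 26.0 to 36.0 FPKM elsewhere. The sum of 20 colon markers was lower in every experimental library than in any control, at 7.11 to 193 FPKM with a lowest control of 215 FPKM at passage 1, and at 6.57 to 107 against 114 to 251 FPKM at passage 6. The sum of 10 blood markers ran from 0.755 to 40.7 FPKM, and the groups overlapped at both passages. The changes of the tested imprinted genes are also given without these pairs of libraries.

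In experimental cells at passage 1, 4 of the 10 genes rose (Peg10, Dlk1, Peg3 and Mest) and 1 fell (Nnat). At passage 6, 1 rose (Peg10) and 1 fell (Igf2). H19 was called lower there too, but it passed the filter through the controls alone and had to differ, so it is not counted. Igf2 reached 1 FPKM in the controls and in only 1 experimental library, so the filter favoured a fall for it too. At both passages 7 of the 10 passed the filter, and Meg3, Cdkn1c and Grb10 did not. Of all genes tested at passage 1, 30.4% were called, 11.5% as higher and 18.9% as lower. At passage 6, 19.8% were called, 8.98% as higher and 10.8% as lower. At passage 1 the experimental libraries lay wholly above the controls for 4 of the 7 and wholly below for 1, against 15.8% and 26.9% of all genes tested. At passage 6 they lay above for 2 (Peg10 and Mest) and below for Igf2, against 17.4% and 24.3%. They also lay below for H19, where the filter fixed this in advance. The shares of all genes tested, called or not overlapping, still hold genes that passed through 1 group alone. They therefore follow a looser rule than the counts without H19. The median change of the 7 tested genes was 0.18 at passage 1 and 0.15 at passage 6, against -0.05 and -0.04 over all genes tested. Filtering sets which genes enter these medians, so they describe 7 genes only. The controls ran, from high to low, Mest, Peg10, Peg3, H19, Igf2, Nnat, Dlk1, Cdkn1c, Grb10 and Meg3 by mean FPKM at both passages. Mest, Peg10 and Peg3 did not overlap with their neighbours in either control group. Further down, Nnat was above Dlk1 and Grb10 above Meg3 without overlap at both passages, and Dlk1 above Cdkn1c at passage 6. The other neighbours in this order overlapped, and in passage 1 control 1 both H19 and Igf2 were below Meg3.

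**Figure D1:**
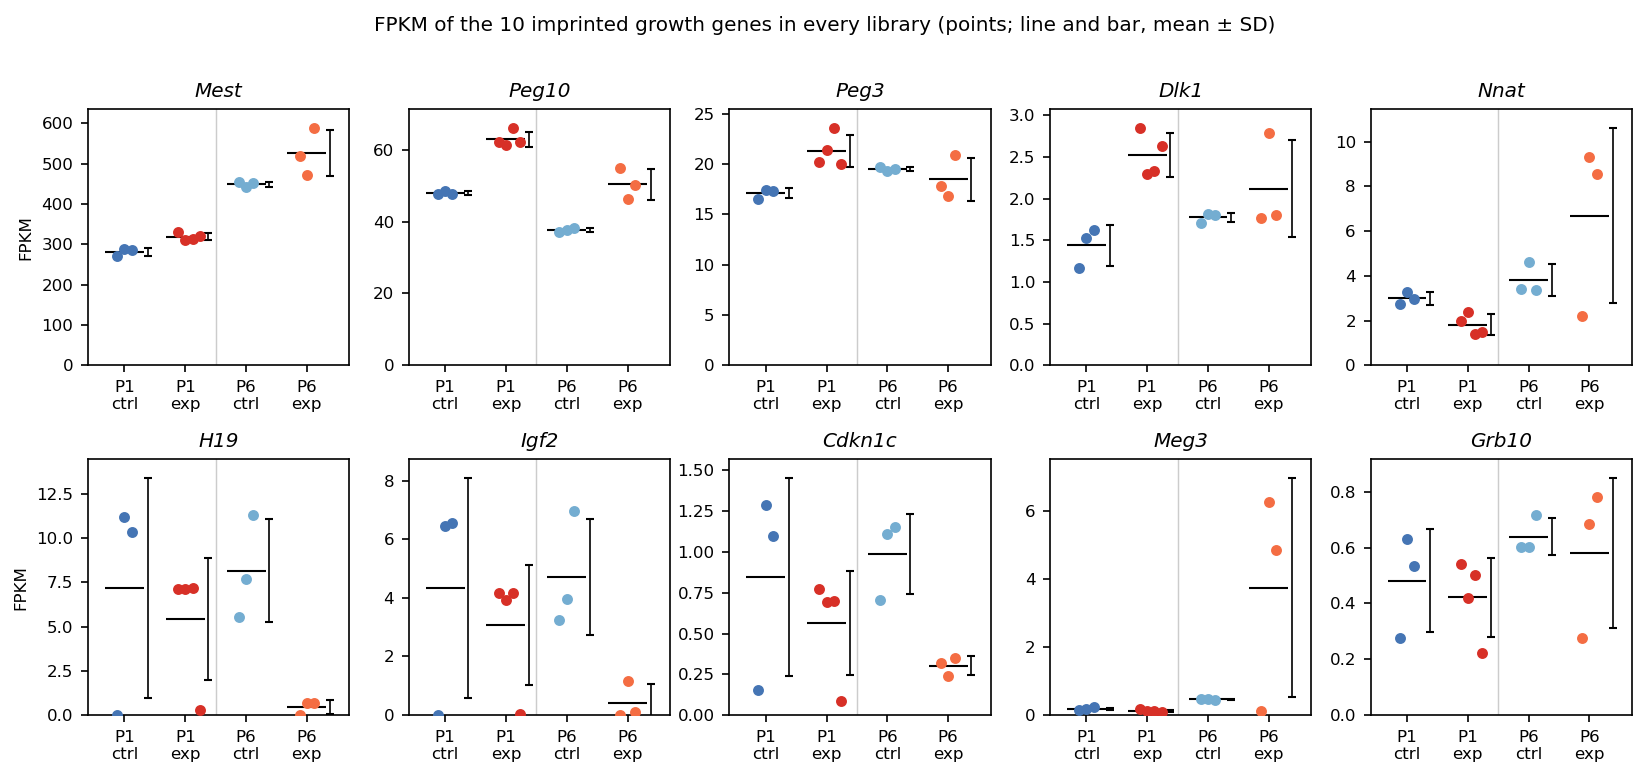
FPKM of each of the 10 imprinted genes in each of the 13 libraries, by passage and group, with 1 point per library, a line at the group mean and a bar for the SD, drawn down to 0 at most. Peg10 is higher in every experimental library than in any control of its passage, whereas H19 and Igf2 are near 0 in passage 1 control 1, passage 1 experimental 4 and most passage 6 experimental libraries.

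The promoters of 3 of the genes that rose together at passage 1 are shown to set their starts side by side, since methylation of CpG dinucleotides is the mark that imprinting uses. Each is the stretch of 250 bases before an annotated start, 5′ to 3′ on the gene's own strand, from RefSeq on GRCm38.p6, with each CpG in capitals.
Mest, chr6:30737800-30738049, plus strand: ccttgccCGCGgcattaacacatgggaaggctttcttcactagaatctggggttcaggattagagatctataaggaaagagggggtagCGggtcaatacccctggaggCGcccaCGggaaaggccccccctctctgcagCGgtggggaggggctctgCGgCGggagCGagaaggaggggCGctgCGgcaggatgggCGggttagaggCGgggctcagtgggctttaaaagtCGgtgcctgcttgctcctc
Peg3, chr7:6730420-6730669, minus strand: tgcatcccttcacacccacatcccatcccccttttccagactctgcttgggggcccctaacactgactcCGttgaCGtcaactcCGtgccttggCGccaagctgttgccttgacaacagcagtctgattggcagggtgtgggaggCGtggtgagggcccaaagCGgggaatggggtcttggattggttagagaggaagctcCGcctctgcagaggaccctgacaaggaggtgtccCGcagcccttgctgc
Dlk1, chr12:109452573-109452822, plus strand: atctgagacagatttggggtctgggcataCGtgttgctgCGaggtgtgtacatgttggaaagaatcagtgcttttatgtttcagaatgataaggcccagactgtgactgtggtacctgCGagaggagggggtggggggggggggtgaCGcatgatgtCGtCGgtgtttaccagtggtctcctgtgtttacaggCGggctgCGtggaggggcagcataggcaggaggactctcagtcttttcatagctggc
The Mest window holds 14 CpG, the Peg3 window 8 and the Dlk1 window 8, where the median of all 32851 windows of this length is 6 CpG. In all, 7 of the 10 genes matched the promoter table, with 14 windows between them. The letters TGCCGC, the core of the site bound by the imprint-keeping protein ZFP57, were searched on both strands. They occur 2 times in the Mest window shown and not in the Peg3 or Dlk1 window, and 8.68% of all windows hold them. A second Mest window that overlaps this one and 1 Meg3 window also hold these letters. Another Mest window, chr6:30733256-30733505, holds 7 CpG and lacks them. Methylation was not measured in these libraries.

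Peg10 is a gene domesticated from a retrotransposon and needed for the placenta, and its protein is abundant in several tumours. It lies on chromosome 6 (4747306 to 4760517, plus strand, GRCm38). At passage 1 Peg10 was at 47.7, 48.6 and 47.6 FPKM in controls 1 to 3 and at 62.2, 61.3, 65.9 and 62.2 FPKM in experimental libraries 1 to 4. All 4 experimental libraries were above all 3 controls, and the rise was 1.31-fold (log2 0.38, SE 0.04, adjusted p = 0.000726). At passage 6 it was at 37.2, 37.5 and 38.1 FPKM in the controls and at 54.8, 46.2 and 50.3 FPKM in the experimental libraries. The groups again did not overlap, and the rise was 1.33-fold (log2 0.41, SE 0.07, adjusted p = 0.00844). Peg10 stayed called at both passages under each alternative setting and with each library left out in turn, with adjusted p of at most 0.0452. Its change at passage 6 minus that at passage 1 was 0.03, with a 95% interval from -0.14 to 0.19.

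Mest, which encodes a hydrolase-like membrane protein that is high in growing mesoderm and fat, was the most abundant of the 10 genes. It lies on chromosome 6 (30723547 to 30748465, plus strand) and shares bases with Copg2 on the opposite strand, which had 13.5 to 22.6 FPKM. Whether the counting used strand is not given in the sources used here. At passage 1 Mest was at 270.0, 287 and 285 FPKM in the controls and at 332, 311, 314 and 320.2 FPKM in the experimental libraries. The groups did not overlap, and the rise was 1.14-fold (log2 0.18, SE 0.04, adjusted p = 0.0154). That call ended without passage 1 control 1 (adjusted p = 0.0802) and without control 3 (adjusted p = 0.0522). It also ended with the replicate number as a block (adjusted p = 0.0990). At passage 6 Mest was at 453, 442 and 452 FPKM in the controls and at 519, 473 and 588 FPKM in the experimental libraries. These groups did not overlap either, but the change of 0.22 (SE 0.08) missed the threshold at an adjusted p of 0.0932. It passed without passage 6 experimental 2 (0.30, adjusted p = 0.0395), with array weights (adjusted p = 0.0302) and in 1 fit over all 13 libraries (adjusted p = 0.0327).

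Peg3 encodes a large zinc finger protein that is active in neurons and placenta and can hold back cell growth. The gene is on chromosome 7 (6703892 to 6730431, minus strand). At passage 1 it was at 16.5, 17.4 and 17.3 FPKM in the controls and at 20.2, 21.4, 23.5 and 20.0 FPKM in the experimental libraries. Every experimental library was higher than every control, by 1.23-fold on average (log2 0.30, SE 0.06, adjusted p = 0.0100). At passage 6 the controls were at 19.7, 19.3 and 19.5 FPKM and the experimental libraries at 17.8, 16.8 and 20.9 FPKM. Here 2 experimental libraries lay below the controls and 1 above, and the change was -0.08 (SE 0.08, adjusted p = 0.50). Peg3 was the only tested gene of the set whose difference between the passages was called. Its change at passage 6 minus that at passage 1 was -0.38 (SE 0.10, adjusted p = 0.0296). The contrast called 14.7% of all genes tested, 8.46% as higher and 6.27% as lower. The Peg3 call sat close to its threshold. Leaving out any 1 control of either passage, or passage 6 experimental 2, gave a difference between -0.39 and -0.32 with adjusted p from 0.0559 to 0.0739. The call also ended with no filter (adjusted p = 0.0736) and with the replicate number as a block (adjusted p = 0.0565). Leaving out passage 1 control 1 and experimental 4 together ended it too (adjusted p = 0.0809).

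Dlk1 encodes a membrane protein of the Notch ligand family that keeps precursor cells undifferentiated and marks neuroendocrine tumours. Dlk1 is on chromosome 12 (109452823 to 109463336, plus strand). At passage 1 it was low, at 1.16, 1.53 and 1.62 FPKM in the controls and at 2.84, 2.30, 2.33 and 2.64 FPKM in the experimental libraries. No experimental library reached down to a control, and the rise was 1.45-fold (log2 0.53, SE 0.09, adjusted p = 0.00478). At this low level the size depends on the value added before taking logs, and the change was 0.78 with 0.1 FPKM added and 0.23 with 5 FPKM. At passage 6 the controls were at 1.71, 1.81 and 1.81 FPKM and the experimental libraries at 1.77, 2.79 and 1.80 FPKM. Only experimental 2 stood above the controls, and the change was 0.15 (SE 0.13, adjusted p = 0.424). The difference between the passages was -0.38 (SE 0.16, adjusted p = 0.132), and it passed the threshold without passage 6 experimental 2 (-0.53, adjusted p = 0.0228).

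Nnat encodes neuronatin, a small membrane protein of the endoplasmic reticulum in neurons and endocrine cells. It lies on chromosome 2 (157560078 to 157562522, plus strand) within Blcap, which runs on the opposite strand and had 16.6 to 23.5 FPKM. At passage 1 Nnat was at 2.72, 3.29 and 2.95 FPKM in the controls and at 1.97, 2.40, 1.39 and 1.47 FPKM in the experimental libraries. All experimental libraries were below all controls, by 1.43-fold (log2 -0.52, SE 0.13, adjusted p = 0.0190). With 0.1 FPKM added in place of 1 the change was -0.72, and with 5 FPKM it was -0.23. The call ended without passage 1 control 2 (adjusted p = 0.0777) and without control 3 (adjusted p = 0.0623). It also ended with no filter on low values (adjusted p = 0.0662) and in 1 fit over all 13 libraries (adjusted p = 0.226). With the replicate number as a block it just missed the threshold (adjusted p = 0.0509). At passage 6 the controls were at 3.41, 4.62 and 3.36 FPKM and the experimental libraries at 2.18, 9.30 and 8.57 FPKM. Experimental 1 was below the controls, and experimental 2 and 3 were above them. The change over all 3 was 0.51 (SE 0.42, adjusted p = 0.415). Without experimental 1 it was 1.06 (adjusted p = 0.00142). The difference between the passages was 1.03 (SE 0.46, adjusted p = 0.151). That difference passed with array weights (1.37, adjusted p = 0.00800) and without passage 6 experimental 1 (1.58, adjusted p = 0.000637). Without passage 6 experimental 2 and 3, which leaves 1 experimental library, it was -0.06. The libraries with high Nnat were those with high brain markers, of which Mbp, a myelin protein, was at 13.3 and 9.63 FPKM in experimental 2 and 3 and at 0.945 FPKM in experimental 1. At passage 1 the sum of the brain markers was 26.6 to 29.9 FPKM in experimental libraries and 34.5 to 36.0 FPKM in controls, but its genes did not move together, with 1 of 4 tested higher and 2 lower. Mbp was the higher one, at 1.88 to 2.13 FPKM with a highest control of 1.53 FPKM (log2 0.35, adjusted p = 0.00974). The part of these transcripts in the Nnat values was not tested.

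The 5 calls at passage 1 were also run without control 1 and experimental 4 together, the pair with few cartilage transcripts, which leaves 2 controls and 3 experimental libraries. Peg10 stayed higher (0.39, adjusted p = 0.0259). Dlk1 (0.44, adjusted p = 0.0594), Peg3 (0.30, adjusted p = 0.0717), Mest (0.15, adjusted p = 0.156) and Nnat (-0.51, adjusted p = 0.0972) kept their direction and missed the threshold. At passage 6, leaving out experimental 2 and 3, the pair with liver and brain transcripts, leaves only experimental 1, so the values are the deviation of 1 library from the control mean and are given with no test. They were 0.53 for Peg10, 0.21 for Mest, -0.13 for Peg3, -0.00113 for Dlk1, -0.58 for Nnat, -3.15 for H19 and -2.46 for Igf2. The sum of 14 fibroblast and muscle markers also separated the groups at both passages. It was 18.8 to 34.7 FPKM in controls and 259 to 299 FPKM in experimental libraries at passage 1. At passage 6 it was 20.4 to 30.9 FPKM in controls, 102 FPKM in experimental 1, and 248 and 246 FPKM in experimental 2 and 3. Most of the passage 1 experimental sum was the smooth muscle actin Acta2 (194 to 224 FPKM) and the myosin light chain Myl9 (51.2 to 62.5 FPKM). Of the tested genes of this list, 4 of 6 were higher at passage 1 and 2 of 8 at passage 6, and none was called lower. Their median change was 0.52 and 1.43. In passage 6 experimental 1, 2 and 3, Acta2 was at 85.4, 82.7 and 95.3 FPKM and Myl9 at 9.99, 11.2 and 12.4 FPKM. Other genes of the list thus made up more of the sum in experimental 2 and 3. The sum of the neuroblastoma markers was 1077 to 1112 FPKM in controls and 985 to 1019 FPKM in experimental libraries at passage 1, and 1165 to 1215 against 1271 to 1371 FPKM at passage 6. Its genes did not move together. Of 16 tested, 3 were higher and 4 lower at passage 1, and 3 were higher and 1 lower at passage 6. Chgb alone had a passage 1 mean of 236 FPKM in controls and 150 FPKM in experimental libraries. The parts of these lists and of the colon markers in the changes of the imprinted genes were not tested. In bulk RNA, fewer cells of a type and less RNA per cell cannot be told apart.

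**Figure D2:**
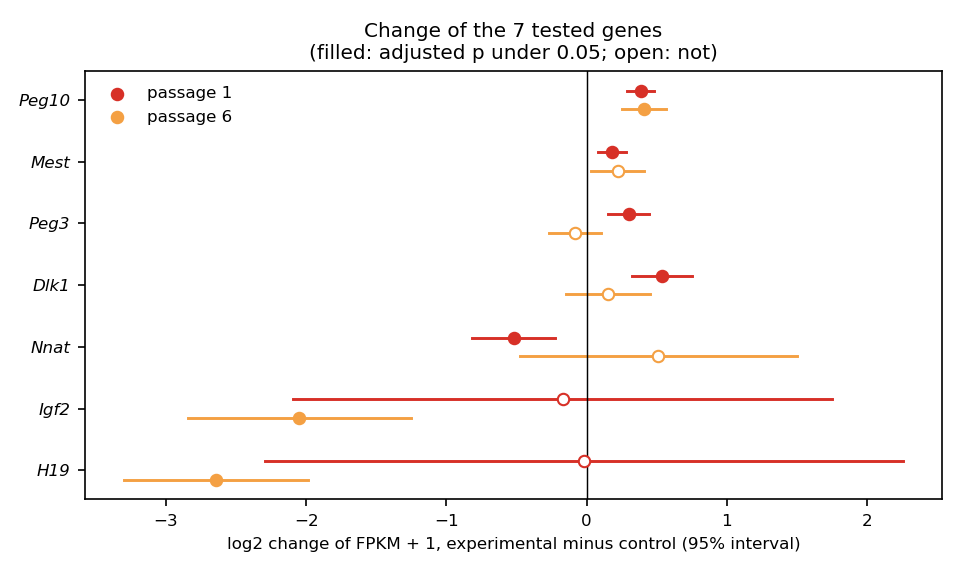
Change of each tested imprinted gene, experimental minus control in log2(FPKM + 1), with its 95% interval, at passage 1 and at passage 6, filled where the adjusted p passed. The intervals of Peg10 lie above 0 at both passages, and those of H19 and Igf2 span 0 at passage 1 and lie below it at passage 6. H19 passed the passage 6 filter through the controls alone and had to differ.

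Igf2 and H19 are neighbours on chromosome 7 that share enhancers, and in each cell the parental mark lets those enhancers act on Igf2 on 1 copy and on H19 on the other. Igf2 (142650766 to 142666816, minus strand) encodes insulin-like growth factor 2, a main driver of growth before birth. H19 (142575529 to 142578143, minus strand) is a noncoding RNA that is abundant in the embryo and whose exon gives rise to miR-675. Its mature forms are shown because they are the best known product of H19, with the seed (bases 2 to 8) in capitals, from RefSeq.
mmu-miR-675-5p: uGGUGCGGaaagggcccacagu
mmu-miR-675-3p: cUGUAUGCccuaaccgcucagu
Mest carries another miRNA pair in an intron, with the seeds again in capitals.
mmu-miR-335-5p: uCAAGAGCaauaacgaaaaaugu
mmu-miR-335-3p: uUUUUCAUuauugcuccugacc
These 4 seeds differ from each other. Mature miRNAs have no poly(A) tail and were not measured, so only the host transcripts are described here.

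At passage 1 H19 was at 0.0212, 11.2 and 10.3 FPKM in the controls and at 7.15, 7.11, 7.16 and 0.292 FPKM in the experimental libraries. Igf2 was listed at 0 in control 1, at 6.44 and 6.56 FPKM in controls 2 and 3, and at 4.18, 3.93, 4.16 and 0.0211 FPKM in the experimental libraries. For both genes control 1 and experimental 4 were near 0, and the other 3 experimental libraries lay below the other 2 controls. The groups therefore overlapped, and neither change passed, at -0.02 for H19 (SE 0.99, adjusted p = 0.991) and -0.17 for Igf2 (SE 0.84, adjusted p = 0.895). Without control 1 and experimental 4 the change was -0.53 for H19 and -0.56 for Igf2. That pair was chosen from earlier results of these data as low in cartilage transcripts, and it holds the lowest H19 and Igf2 of passage 1, so these values are a description with no test.

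At passage 6 H19 was at 5.52, 7.67 and 11.3 FPKM in the controls, was listed at 0 in experimental 1 and was at 0.686 and 0.691 FPKM in experimental 2 and 3. All experimental libraries were below 1 FPKM and all controls above 5 FPKM, a fall of 6.25-fold on the log2(FPKM + 1) scale (log2 -2.64, SE 0.28, adjusted p = 0.00241). H19 passed the filter through the controls alone and so had to differ. With any 1 passage 6 control left out it was no longer tested. Igf2 was at 3.24, 3.95 and 6.95 FPKM in the controls and at 0.00017, 1.16 and 0.0923 FPKM in the experimental libraries. Its controls alone would have met the filter, and only experimental 2 also reached 1 FPKM, so the filter favoured a fall. The groups did not overlap, and Igf2 fell 4.14-fold (log2 -2.05, SE 0.34, adjusted p = 0.00919), a call that was lost in 1 fit over all 13 libraries (adjusted p = 0.0697). The size of both falls depends on the value added before taking logs. With 0.1 FPKM added the change was -4.32 for H19 and -3.98 for Igf2, and with 5 FPKM it was -1.25 and -0.83, called in each case. The difference between passages was -2.63 for H19 (SE 1.21, adjusted p = 0.161) and -1.88 for Igf2 (SE 1.05, adjusted p = 0.249), so the changes at the 2 passages were not shown to differ. Without passage 1 control 1 and experimental 4, the same pair, the difference was -2.11 for H19 and -1.49 for Igf2, again as a description.

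H19 and Igf2 were low in the libraries that were low in the cartilage collagen Col2a1. It was at 0.0702, 24.0 and 23.1 FPKM in the passage 1 controls and at 14.3, 14.9, 15.9 and 0.320 FPKM in the experimental libraries. The passage 6 values were 11.8, 15.8 and 24.9 FPKM in the controls and 0.179, 0.304 and 0.325 FPKM in the experimental libraries. The libraries low in Col2a1 were the same 5 that had H19 under 1 FPKM. Matn1, a cartilage matrix protein, was at 0 in passage 1 control 1, passage 1 experimental 4 and passage 6 experimental 1 and 2, and at most 0.0595 FPKM in passage 6 experimental 3, against 0.843 to 2.40 FPKM in the other 8 libraries. The sum of the cartilage list at passage 6 was 40.4 to 65.0 FPKM in controls and 22.3 to 26.7 FPKM in experimental libraries. Cartilage genes under 1 FPKM in every experimental library, Col2a1 and Matn1 among them, passed the filter at passage 6 through the controls alone and had to differ, so their calls are not counted here. Not every gene of the list followed this order. Sox9, a transcription factor of cartilage and other tissues, was at 5.64 to 6.37 FPKM in the passage 1 controls and at 6.54 to 7.98 FPKM in the experimental libraries, highest in experimental 4, and it rose (log2 0.24, adjusted p = 0.0422). The part of cartilage transcripts in the H19 and Igf2 values was not tested. Col2a1 is named here after its values were seen. In the 9 libraries with Igf2 at 1 FPKM or more, H19 was 1.57 to 1.94 times the level of Igf2 in 8 and 0.591 times in passage 6 experimental 2, a description with no test.

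**Figure D3:**
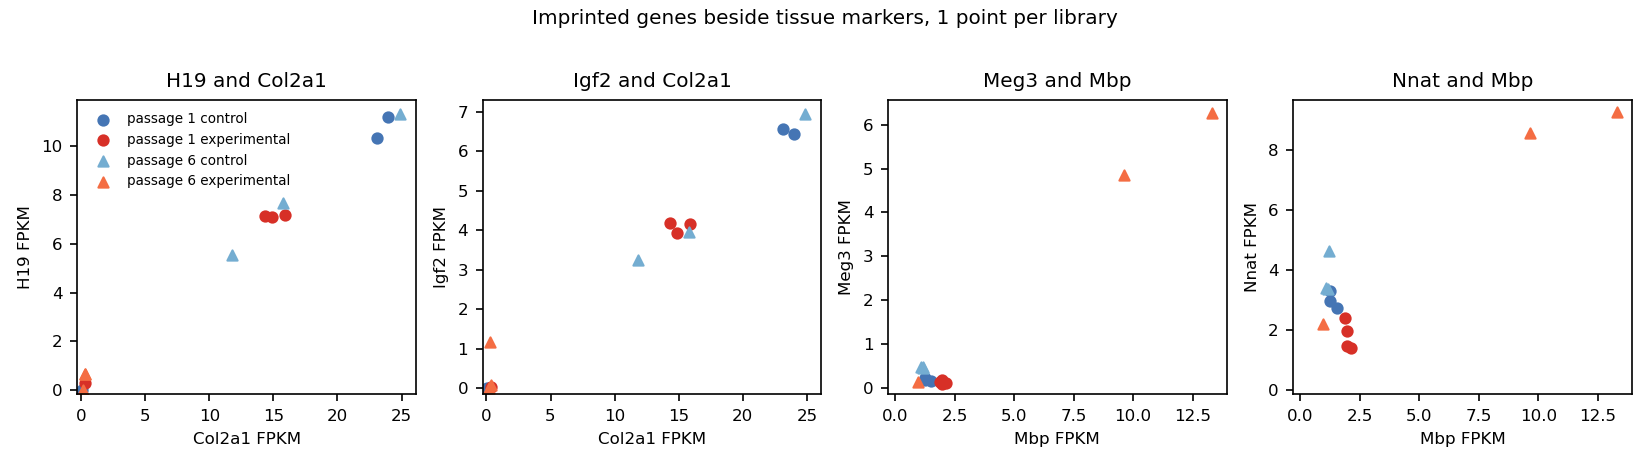
FPKM of H19 and Igf2 (vertical axes) against FPKM of the cartilage gene Col2a1, and of Meg3 and Nnat against the myelin gene Mbp, with 1 point per library coloured by passage and group. H19 and Igf2 are low in the 5 libraries where Col2a1 is at most 0.325 FPKM, and Meg3 and Nnat are highest in passage 6 experimental 2 and 3, where Mbp is highest.

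Cdkn1c and Grb10 restrain growth and were both under the filter at each passage. Cdkn1c encodes the cyclin-dependent kinase inhibitor p57 and lies on chromosome 7 (143458339 to 143461050, minus strand). At passage 1 it was at 0.152, 1.29 and 1.10 FPKM in the controls and at 0.773, 0.695, 0.699 and 0.0867 FPKM in the experimental libraries. Control 1 and experimental 4 were again the lowest of their groups. At passage 6 it was at 0.705, 1.11 and 1.15 FPKM in the controls and at 0.320, 0.236 and 0.350 FPKM in the experimental libraries. These groups did not overlap, and with no filter the change was -0.60 (SE 0.12, adjusted p = 0.0518). Over both passages Cdkn1c was at 0.0867 to 0.350 FPKM in the libraries low in Col2a1 and at 0.695 to 1.29 FPKM in all others. That is the same split as for H19 and Igf2, and the part of cartilage transcripts in the Cdkn1c values was not tested. Grb10 encodes an adaptor that dampens signalling from the insulin and IGF receptors and lies on chromosome 11 (11930508 to 12038683, minus strand). It was at 0.276, 0.633 and 0.536 FPKM in the passage 1 controls and at 0.542, 0.421, 0.502 and 0.222 FPKM in the experimental libraries. Its lowest libraries there were also control 1 and experimental 4. At passage 6 it was at 0.602, 0.601 and 0.716 FPKM in the controls and at 0.276, 0.685 and 0.782 FPKM in the experimental libraries, with both groups overlapping at each passage (adjusted p = 0.798 and 0.808 with no filter).

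Meg3 is a noncoding RNA of the same imprinted domain as Dlk1, expressed from the maternal copy, and is known as a restrainer of growth. Its position is chromosome 12 (109541001 to 109571726, plus strand). At passage 1 it was at 0.150, 0.180 and 0.222 FPKM in the controls and at 0.171, 0.115, 0.112 and 0.0879 FPKM in the experimental libraries, which overlapped. At passage 6 it was at 0.465, 0.465 and 0.445 FPKM in the controls and at 0.125, 6.26 and 4.86 FPKM in the experimental libraries. Experimental 1 was below every control, and experimental 2 and 3 were the highest of the 13 libraries. These 2 libraries also held Mbp, the liver protein transcripts Alb (67.4 and 56.8 FPKM, listed at 0 in the other 11) and the brain and liver sums given above, whose part in the Meg3 values was not tested. With no filter the Meg3 change was -0.08 at passage 1 (adjusted p = 0.214) and 1.32 at passage 6 (adjusted p = 0.365).

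Within the Dlk1 and Meg3 domain, the retrotransposon-derived gene Rtl1, also paternal and needed in the placenta, moved against Dlk1 at passage 1. Rtl1 is named here after its values were seen. It lies on chromosome 12 (109589193 to 109600330, minus strand), opposite a maternal antisense transcript that unstranded counting could not tell from it. At passage 1 Rtl1 was at 3.43, 3.20 and 3.42 FPKM in the controls and at 1.10, 0.824, 1.10 and 0.606 FPKM in the experimental libraries. The groups did not overlap, and Rtl1 fell 2.29-fold (log2 -1.20, SE 0.11, adjusted p = 0.000271). At passage 6 it was at 6.11, 5.99 and 5.53 FPKM in the controls and at 2.14, 1.88 and 1.63 FPKM in the experimental libraries. Again no library overlapped, and the fall was 2.39-fold (log2 -1.26, SE 0.08, adjusted p = 0.000911). With 0.1 or 5 FPKM added in place of 1 the change was -1.81 or -0.50 at passage 1 and -1.60 or -0.66 at passage 6, called in each case. Without passage 1 control 1 and experimental 4 it was -1.10 (adjusted p = 0.00684). Rtl1 stood at 2.09 to 2.95 times the level of Dlk1 in the passage 1 controls and at 0.230 to 0.470 times in the experimental libraries. At passage 6 the ratio was 3.06 to 3.57 in controls and 0.673 to 1.20 in experimental libraries. Dlk1 stood at 7.29 to 8.51 times Meg3 in the passage 1 controls and at 16.6 to 30.0 times in the experimental libraries, with Meg3 at 0.222 FPKM or less in all 7. At passage 6 it stood at 3.68 to 4.06 times in the controls, at 14.2 times in experimental 1 and at 0.445 and 0.371 times in experimental 2 and 3. The ratios are descriptions with no test.

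**Figure D4:**
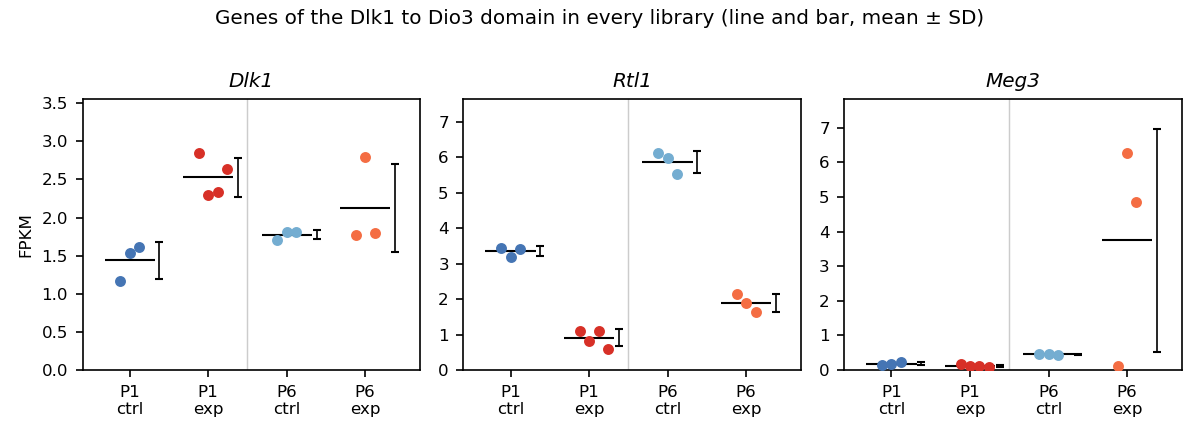
FPKM of Dlk1, Rtl1 and Meg3, which share a domain on chromosome 12, in each of the 13 libraries (points), by passage and group, with the group mean (line) and SD (bar). At passage 1 Dlk1 is higher and Rtl1 lower in every experimental library than in any control, and Meg3 is above 1 FPKM only in passage 6 experimental 2 and 3.

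Genes beside the 10 were counted by neighbourhood, to be read against the 30.4% of all tested genes called at passage 1 and the 19.8% at passage 6. Of 3 tested neighbours of Igf2 and H19, 2 fell at passage 1 and 1 at passage 6, among them Lsp1, a leukocyte actin-binding protein (passage 1 log2 -0.41, adjusted p = 0.00132). Of 6 tested neighbours of Cdkn1c, 2 rose and 1 fell at passage 1, and 1 rose and 1 fell at passage 6. The tetraspanin Cd81 was higher at both, by 0.67 (adjusted p = 0.00162) and 0.38 (adjusted p = 0.0108), and at passage 6 its adjusted p was 0.0513 to 0.0519 with any 1 control left out. Of 4 tested neighbours of Dlk1 and Meg3, 3 fell at passage 1, Rtl1 and the tryptophan tRNA synthetase Wars (-0.41, adjusted p = 0.00343) among them, and 1 fell at passage 6. Of 3 tested neighbours of Mest, 1 fell at passage 1 and none passed at passage 6. Of 3 tested neighbours of Peg10 and 2 of Peg3, none passed at passage 1 and 1 of each rose at passage 6. The 1 tested neighbour of Grb10 fell at both passages, and neither of 2 tested neighbours of Nnat passed.

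Of 26 tested imprinted genes outside the set, a list that shares genes with the neighbours above, 2 rose and 6 fell at passage 1 and 2 rose and 4 fell at passage 6. That is 30.8% and 23.1% called, close to the 30.4% and 19.8% of all genes tested. Inpp5f, a phosphoinositide phosphatase, fell at both (-0.46, adjusted p = 0.000723, and -0.39, adjusted p = 0.00444). Zdbf2 (-0.33, adjusted p = 0.00212) and Nap1l5, a nucleosome assembly protein (-0.43, adjusted p = 0.00285), fell at passage 1. Zdbf2 also fell at passage 6 (-0.33, adjusted p = 0.0369). That call ended with any 1 control, experimental 2 or experimental 3 left out (-0.34 to -0.24, adjusted p from 0.0515 to 0.117). It also ended under median-of-ratios scaling (adjusted p = 0.0508) and with no filter (adjusted p = 0.112). The replicate number as a block ended it too (adjusted p = 0.0515). The passage 1 calls of Lsp1, Cd81, Wars, Inpp5f, Zdbf2 and Nap1l5 held without control 1 and experimental 4, with adjusted p from 0.0216 to 0.0486. Genes whose calls ended were mostly left as counts, so this was largely fixed by the choice of names and does not describe the lists. The median change of this list was -0.13 at passage 1 and 0.04 at passage 6, against -0.05 and -0.04 over all genes tested. Of 23 tested factors that set, keep or read imprints, 2 rose and 2 fell at passage 1, and none rose and 5 fell at passage 6. Of the IGF and insulin signalling genes around Igf2 and Grb10, 7 of 23 tested rose and 3 fell at passage 1, and 4 of 22 rose and 3 fell at passage 6. Of 8 tested RNA-binding proteins and regulators of Igf2 and H19 transcripts, 1 rose and 2 fell at passage 1, and 3 fell at passage 6. Of 4 tested Notch genes, none passed at passage 1 and 2 fell at passage 6. Of 11 tested cell cycle inhibitors and partners related to Cdkn1c, 2 rose and 1 fell at passage 1, and 1 fell at passage 6.

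The genes whose pattern was most like each member were ranked by Pearson's r of log2(FPKM + 1) over the 13 libraries, each passage centred on its mean. Libraries share depth, group and foreign transcripts, so r is a description. Among 6747 genes with a mean of at least 5 FPKM in both passages, Peg10 was nearest to Chsy1 (0.975), Copb1 (0.974) and Ccl2 (0.974). Mest was nearest to Mpzl1 (0.950), Pip4k2b (0.945) and Pcbp2 (0.931), and Peg3 to Tanc2 (0.954), Vat1l (0.939) and Jmy (0.933). For the lower members the ranking was extended, after values were seen, to 11790 genes with a mean of at least 1 FPKM. There H19 was nearest to Col2a1 (0.993), Timp3 (0.990) and Comp (0.985), and Igf2 to Timp3 (0.990), H19 (0.982) and Col11a1 (0.982). Col2a1, Comp and Col11a1 belong to the cartilage list. Dlk1 was nearest to Vps37d (0.957) and Nnat to Cryab (0.945).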

How the data were processed

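Per the labels' protocols, poly(A) RNA with an integrity number above 7.0 was made into dUTP-marked libraries. The authors deposited 2 tables of FPKM per gene, 1 for each passage. The submitters' processing notes name HISAT2, StringTie, cutadapt, edgeR and DESeq2 and the build mm10, without versions. How FPKM were scaled between libraries is not given in the sources used here. Of 34857 genes, 34731 matched a symbol in GRCm38 (the assembly also called mm10), 1 gene with an empty cell was left out, and 1212 had no signal in any of the 13. Positions count from 1.

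Each passage was fitted alone, two-sided and with an intensity trend, by limma 3.58.1 (R 4.3.3) on log2(FPKM + 1), and fits were tested on simulated data. The difference between passages was a contrast over all 13 libraries, run on each gene that passed at 1 passage or both. The passages are separate tables, so only changes within a passage enter it. FPKM hold no counts, so precision comes from the spread between libraries. The members and lists were chosen with earlier results of these data known. All 10 members are named. From the other lists up to 4 called genes per passage with the largest change and a mean of at least 5 FPKM could be named, and those whose call at passage 1 or 6 ended with a setting or library are mostly given as counts only. Alternatives changed the pseudocount, filter, scaling, trend, weights, replicate block, joint fit and libraries. Figures were drawn with matplotlib 3.10.9.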

Additional observations from a re-analysis of the deposited data

Results flagged for a closer look

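In passage 1 experimental cells, library 4 lay far from the other 3 for H19 (0.292 FPKM), Igf2 (0.0211 FPKM) and Cdkn1c (0.0867 FPKM), by Dixon's test for groups of 4. The 10 imprinted genes were tested in that group, and chance gives such a distance in about 1 of 20 groups. The same library had a low sum of cartilage markers, and Grb10 was lowest there too. The change of Peg3 at passage 6 minus that at passage 1 was -0.38 on the log2 scale and passed its threshold (adjusted p = 0.0296). It did not pass with no filter (adjusted p = 0.0736) or with the replicate number as a block (adjusted p = 0.0565). Nor did it pass without passage 1 control 1 and experimental 4 (adjusted p = 0.0809). The same held with any 1 of 7 libraries left out (the 6 controls and passage 6 experimental 2).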

How the results depend on the processing

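Deviations of same-numbered control and experimental libraries correlated at 0.17, -0.19 and 0.24 at passage 1 and at -0.07, -0.06 and 0.03 at passage 6. Those of different-numbered libraries ran from -0.35 to 0.26 and from -0.09 to 0.11. The replicate numbers thus showed no clear pairing, though so few libraries cannot settle it. With the replicate number as a block, called genes numbered 1813 of all genes and 3 members at passage 1, 1438 of all genes at passage 6, and 728 of all genes and 0 members for the difference. With no filter, all genes called were 1286 at passage 6 and 1185 for the difference, with 0 members. With at least 5 FPKM, Dlk1 and Nnat were no longer tested at passage 1, and the other 3 called members (Peg10, Peg3 and Mest) stayed called. Array weights gave 3192 genes and 2 members for the difference. Without passage 6 experimental 2 and 3, which leaves 1 experimental library assumed to vary like the others, 2 members were called for the difference. Without passage 1 control 1 and experimental 4, 976 genes and 3 members were called at passage 1 and 838 genes for the difference. With 1 library left out, calls ran from 2053 to 4069 genes and 3 to 5 members at passage 1, from 670 to 4257 genes and 2 to 4 members at passage 6, and from 1160 to 2547 genes and 0 to 2 members for the difference. The member counts at passage 6 include H19 in each run that tested it. The low counts came without any 1 control of the passages compared (2053 to 2087 at passage 1, 670 to 767 at passage 6, 1160 to 1227 for the difference), and passage 6 gave 4257 without experimental 1 and 1582 without experimental 3.

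No called change of a single gene among those recomputed (the tested members and the other genes named with a p, except Mbp and Sox9) changed sign. At passage 1 signs changed for H19 (0.53 with pseudocount 0.1, 0.0102 with equal totals, 0.0210 with median-of-ratios scaling, 0.0325 with quantile normalization, 0.65 with the block) and Igf2 (0.0808 with pseudocount 0.1, 0.41 with the block), and with 1 library left out they ran from -1.19 to 0.65 and from -1.14 to 0.41, above 0 without control 2, control 3 or experimental 4. Without passage 6 experimental 2 and 3, signs changed at passage 6 for Dlk1 (-0.00113) and Nnat (-0.58), and for the difference for Nnat (-0.0622) and Rtl1 (0.0668). For the difference they also changed for Peg10 (-0.00189 with median-of-ratios scaling, -0.00811 with quantile normalization) and Rtl1 (0.21 with pseudocount 0.1). With 1 library left out, the difference ran from -0.0348 to 0.0864 for Peg10 (below 0 without passage 6 experimental 1), from -0.0435 to 0.113 for Mest and from -0.139 to 0.00467 for Rtl1 (Mest below and Rtl1 above 0 without passage 6 experimental 3). The cause was not tested. Unknown depth limits what can be said of genes under 1 FPKM.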
